A study of Mus musculus with 16 samples.

Results

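Group 2 innate lymphoid cells (ILC2s) isolated from mouse lung 2 weeks after intranasal IL-33 were compared with those isolated 4 days after it. The comparison rests on 6 of the 16 expression arrays of the series, the 3 labelled lung at week 2 and the 3 labelled lung at day 4, and covers all 22180 genes that could be named. All the lung groups are labelled as ILC2s of the strain C57BL/6J, and both groups compared had received IL-33, so neither is an untreated control. Beside them the series holds lung ILC2s from naive mice (2 arrays) and 4 months after IL-33 (2 arrays), and ILC2s from the lung-draining node of the mediastinum (mLN) at day 4 (3 arrays) and week 2 (3 arrays), for which no strain is labelled. Arrays are labelled as biological replicates. The age of the mice, the number pooled for an array and the markers used for isolation were not given in the sources used here.

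ILC2s are lymphocytes without a rearranged antigen receptor that live in barrier tissues. IL-33, a cytokine released by damaged epithelium, makes them divide and secrete the type 2 cytokines IL-5 and IL-13, which drive eosinophilia and mucus production. After the stimulus has gone their number contracts, and the series title names the cells of the later times memory-like and those of the early time effector cells. The comparison of week 2 with day 4 asks which transcripts separate these states.

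The values are log2 signals, so a difference of 1 is a doubling of signal, and each gene is represented by its brightest probe set. Genes were tested with limma on the means of all 6 groups, and a gene is called where its Benjamini-Hochberg adjusted p over all 22180 genes is below 0.05. A lower signal in bulk RNA can come from fewer cells that hold a transcript or from less transcript in each cell, and these cannot be told apart here.

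The 12 ILC2 markers (Gata3, Il7r, Thy1 and others) had a mean log2 signal of 9.43 to 9.74 on the day 4 arrays and 9.45 to 9.60 on the week 2 arrays. The labelled cell type thus carried its defining transcripts at both times. Of the 12, 0 were called, which is near the share of all genes (1.81%). Macrophage transcripts varied inside both groups. The mean of 18 macrophage markers was 5.82, 5.98 and 4.38 on day 4 replicates 1, 2 and 3, and 4.10, 3.99 and 5.21 on week 2 replicates 1, 2 and 3. Chil3, a lectin of alveolar and alternatively activated macrophages, read 11.39, 11.43 and 9.19 at day 4 and 5.88, 5.52 and 10.61 at week 2. Day 4 replicates 1 and 2 and week 2 replicate 3 therefore stood apart, with neutrophil markers high on the same arrays (4.58, 4.39 and 4.26, against 3.22 to 3.58 on the other three). T cell markers stayed between 5.04 and 5.23 on all 6 arrays. On the 2 naive lung arrays they read higher, at 6.61 and 6.42. NK cell and ILC1 markers read 4.55 and 4.44 there, against 3.31 to 3.86 on the 6 arrays compared. The naive values given below come from those arrays, and the part of other cells in them was not tested. Their signals were also less spread, with interquartile ranges of 2.39 and 2.45. The 4 month lung arrays had 2.05 and 2.47, and the 6 arrays compared 2.85 to 3.04. Replicates correlated at 0.937 for naive lung and 0.947 for 4 month lung. Within the day 4 and week 2 lung groups this was 0.977 to 0.986. Naive and 4 month levels below are description only, and the effect of these differences on them was not tested. Over the 14 marker lists of other and own cell types, Ccl17 among the dendritic cell markers and Ighm among the B cell markers were called, and no member of the other 12 lists was, although up to 5 of the 18 macrophage markers were called lower with a single array left out. The result lists below are also counted without these 3 macrophage-high arrays, which leaves the macrophage-low ones. Those values rest on 1 day 4 array and 2 week 2 arrays, and the lone day 4 array is assumed to vary like the other groups.

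**Figure D1:**
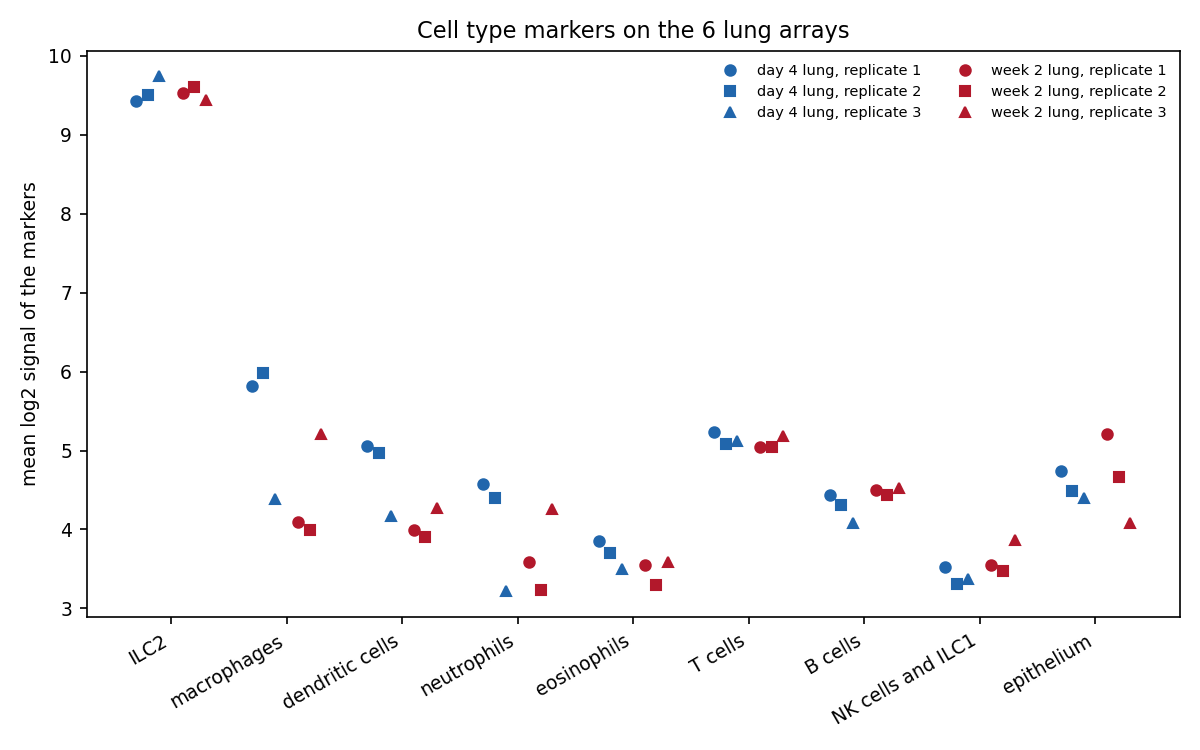
Mean log2 signal (y axis) of the markers of 9 cell types (x axis) on each of the 6 lung arrays, day 4 in blue and week 2 in red, with 1 symbol shape for each replicate number. ILC2 markers lie between 9.43 and 9.74 on all 6 arrays, while macrophage markers reach 5.82 and 5.98 on day 4 replicates 1 and 2 and 5.21 on week 2 replicate 3.

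Between day 4 and week 2, 401 of 22180 genes were called (1.81%), of which 308 were lower at week 2 (1.39%) and 93 higher (0.419%). The fall covered genes of cell division, interferon-stimulated genes, inhibitory receptors and chemokines, and the rises included the cytokines Il2, Lif and Tnf. For 397 of the 401 the 3 day 4 arrays and the 3 week 2 arrays did not overlap, against 23.8% of all genes. The calls were chosen on these same arrays, so their separation follows largely from that choice and is not further support. The change was at least 1 on the log2 scale for 263 called genes, 214 lower and 49 higher. At an unadjusted p under 0.05, 2601 genes differed.

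These counts depended on single arrays. Left out one at a time, day 4 replicates 1 and 2 gave 182 and 213 calls, week 2 replicates 1, 2 and 3 gave 201, 182 and 227, and day 4 replicate 3 gave 460. In all, 149 of the 401 genes stayed called whichever of the 6 arrays was left out, 124 of them lower and 25 higher. With the macrophage-low arrays alone, 46 genes were called, and 41 of the 401 were among them. All 401 kept their sign in that fit, but for the 397 without overlap leaving arrays out could not have reversed it. With the macrophage marker mean of each array as a covariate, 159 of the 401 stayed called and all 401 kept their sign.

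**Figure D2:**
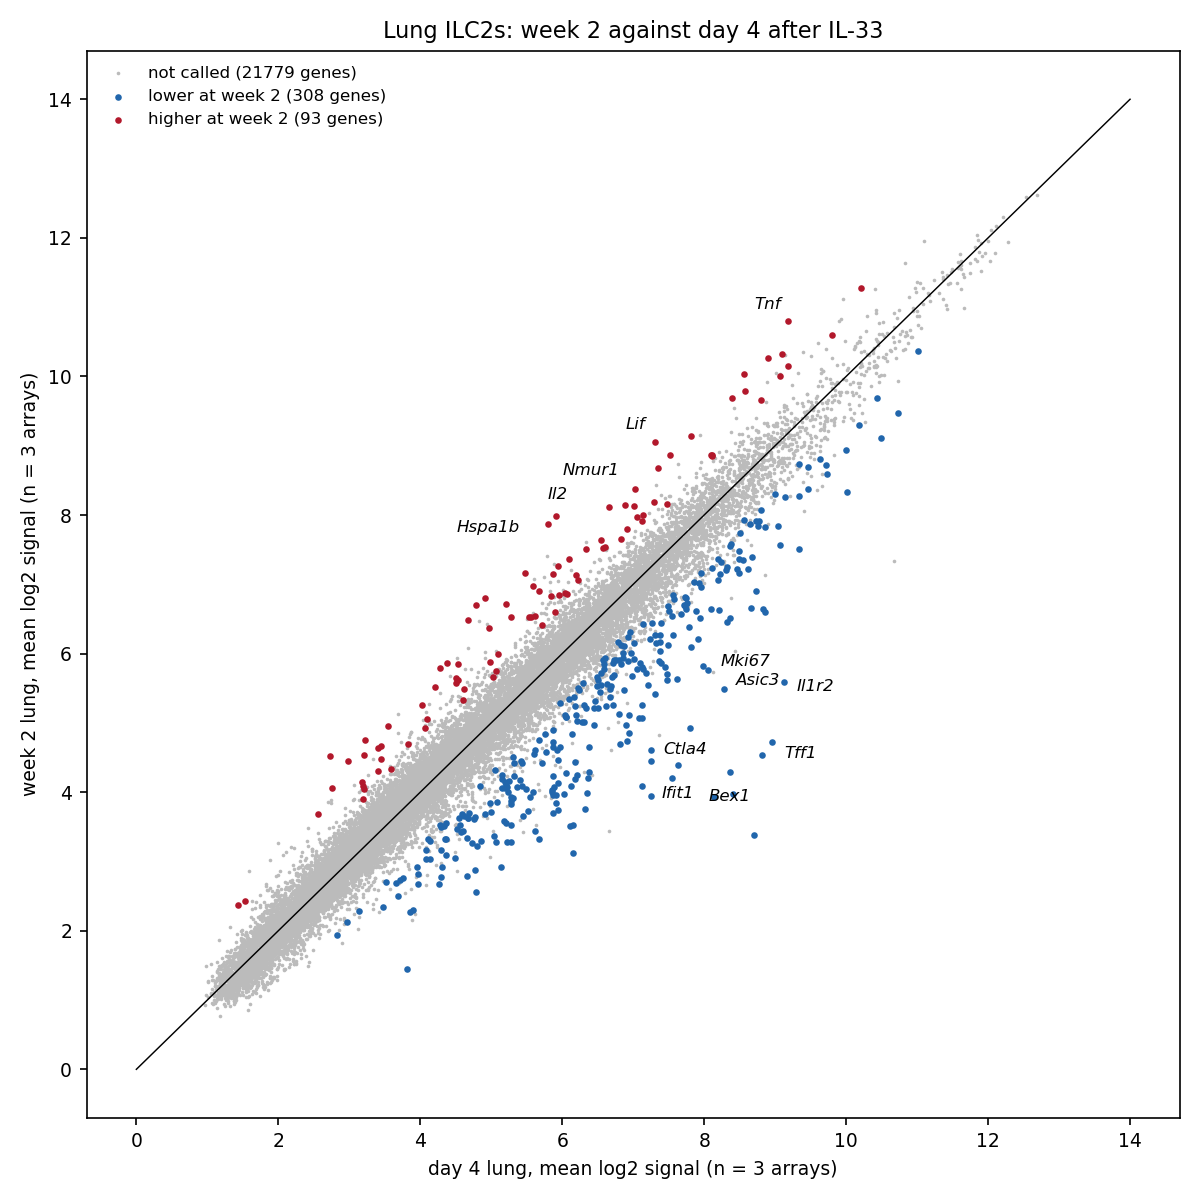
Mean log2 signal of each gene at day 4 (x axis) and week 2 (y axis) in lung ILC2s, n = 3 arrays each, with the line of equal signal. The 308 genes called lower at week 2 (blue) include changes down to -5.32, and the 93 called higher (red) changes up to 2.07, and 12 genes described in the text are named.

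Genes of mitosis formed one of the main groups of the fall. Of 37 measured genes of mitosis and the kinetochore, the protein assembly that ties chromosomes to the spindle, 26 were called lower and 0 higher. These calls were 70.3% of the list, beside 1.81% of all genes. The median change was -1.29 against 0.01 for all genes. Every one of the 37 had a change below 0, from -3.30 to -0.37. When the macrophage-high arrays were left out, the median was -1.23 and 5 of the 37 were called, and with the macrophage covariate 17 were.

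Ube2c, which loads ubiquitin on targets of the anaphase-promoting complex, read 7.24, 7.10 and 7.41 at day 4 and 3.82, 4.10 and 3.93 at week 2. It changed by -3.30 (SE 0.31, adjusted p = 2.5e-05). Ndc80, the kinetochore subunit that binds microtubules, read 6.44, 5.53 and 6.35 at day 4 and 3.86, 3.55 and 3.12 at week 2, a change of -2.60 (SE 0.29, adjusted p = 0.000109). All day 4 arrays of both genes lay above all week 2 arrays. Mki67, whose protein Ki-67 coats mitotic chromosomes and marks cycling cells, read 8.34, 7.84 and 7.97 at day 4 and 5.90, 5.96 and 5.42 at week 2, a change of -2.29 (SE 0.22, adjusted p = 2.5e-05). Its 2 naive arrays read 5.47 and 4.87 and its 2 arrays at 4 months 4.30 and 4.78. The week 2 values thus lay above both naive values on 2 of 3 arrays and above both 4 month values on all 3. Kif11, the motor that separates spindle poles, read 6.53, 6.40 and 6.21 at day 4 and 4.33, 4.32 and 4.23 at week 2, a change of -2.09 (SE 0.23, adjusted p = 7.61e-05). Other called members included the mitotic kinase Cdk1 (-1.95), the survivin gene Birc5 (-2.07), topoisomerase Top2a (-1.86) and cyclin Ccna2 (-1.99). The calls of Ube2c, Ndc80, Mki67 and Kif11 held whichever single lung array was left out, that of Plk1 (-1.14) was lost without day 4 replicate 1, and that of Cdc20 (-1.22) was lost without any of the 6 except day 4 replicate 2. Without the 3 macrophage-high arrays Ube2c, Ndc80 and Mki67 were called, and Kif11 was not (-1.88, adjusted p = 0.0711).

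Many mitotic promoters carry a cell cycle homology region (CHR), the element through which the DREAM complex and B-Myb with FoxM1 act, often near a CCAAT box. The letters TTTGAA or TTCGAA were searched on both strands of the RefSeq promoters of build GRCm38.p6, from 250 bases before to 50 after each start site. A match was present for 24 of the 31 mitosis genes with a listed promoter (77.4%), or 78.8% of their promoters, against 17% of all 20611 promoters. CCAAT was present in 69.7% of the mitosis promoters and 37.7% of all promoters (the motifs were counted separately, and their matches may share bases). The promoters of the 3 called members with the largest falls that hold the motif are printed 5′ to 3′ on the gene's strand, because these genes moved together. Capitals mark the CHR match, which appears as TTCAAA where it lies on the opposite strand. They are Ube2c at chr2:164769679-164769978 on the plus strand, with the match starting at -29 from the start site, Ndc80 at chr17:71526808-71527107 on the minus strand, with the match at 29, and Mki67 at chr7:135716330-135716629 on the minus strand, with matches at -116 and -98.
Ube2c: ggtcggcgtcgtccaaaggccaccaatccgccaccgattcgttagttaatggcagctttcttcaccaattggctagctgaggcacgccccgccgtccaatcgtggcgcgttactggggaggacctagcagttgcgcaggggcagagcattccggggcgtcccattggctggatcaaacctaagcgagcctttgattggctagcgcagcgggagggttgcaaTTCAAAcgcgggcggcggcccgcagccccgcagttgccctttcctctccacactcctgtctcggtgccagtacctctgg
Ndc80: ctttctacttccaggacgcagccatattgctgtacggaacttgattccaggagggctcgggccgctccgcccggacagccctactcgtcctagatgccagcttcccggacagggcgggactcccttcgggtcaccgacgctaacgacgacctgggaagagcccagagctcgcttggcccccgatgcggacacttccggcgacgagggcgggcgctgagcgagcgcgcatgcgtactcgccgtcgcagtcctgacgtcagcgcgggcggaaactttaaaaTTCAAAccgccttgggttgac
Mki67: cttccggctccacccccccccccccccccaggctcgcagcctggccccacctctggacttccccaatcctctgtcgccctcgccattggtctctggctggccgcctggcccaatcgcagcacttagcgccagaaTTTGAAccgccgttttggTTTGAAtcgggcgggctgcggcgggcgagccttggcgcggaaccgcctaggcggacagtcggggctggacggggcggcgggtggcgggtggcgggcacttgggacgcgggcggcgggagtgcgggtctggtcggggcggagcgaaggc
A match of these letters describes the sequence and is not evidence of binding.

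Genes of DNA replication moved less. Of 36 measured genes of DNA replication and S phase, 8 were called lower and 0 higher (22.2%, beside 1.81% of all genes). The median change was -0.47. Rrm2, the regulated subunit of ribonucleotide reductase that makes deoxynucleotides, read 7.69, 7.18 and 6.89 at day 4 and 4.44, 4.21 and 4.69 at week 2, a change of -2.81 (SE 0.30, adjusted p = 7.61e-05). Uhrf1, which guides maintenance DNA methylation, read 5.23, 4.97 and 5.50 and then 4.04, 4.01 and 3.95, a change of -1.23 (SE 0.20, adjusted p = 0.00242). Chaf1a, a subunit of the histone chaperone CAF-1, read 4.47, 4.78 and 4.56 and then 3.51, 3.41 and 3.40, a change of -1.16 (SE 0.19, adjusted p = 0.00252). Groups did not overlap for these genes. Pole2, a subunit of the leading-strand polymerase, changed by -1.04 (SE 0.23, adjusted p = 0.0255), and its call was lost without any single lung array except day 4 replicate 2. The clamp Pcna, in contrast to Rrm2, changed by 0.13 (adjusted p = 0.834), and the helicase subunit Mcm2 by -0.15 (adjusted p = 0.808). The list held 3 to 6 calls when single arrays were left out, with 3 without week 2 replicate 1, 4 without day 4 replicate 1 or week 2 replicate 2 and 5 without week 2 replicate 3, and it held 1 call, Rrm2, without the 3 macrophage-high arrays and 4 with the covariate. An E2F site (TTTCGCGC, TTTGGCGC, TTCCCGCC or TTGGCGGG on either strand) was present for 14 of the 31 S phase genes with a promoter (45.2%), against 5.59% of all genes with one.

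Of 22 measured G1 cyclins, E2F factors and Cdk inhibitors, 3 were called lower and 0 higher (13.6%, beside 1.81% of all genes). The median change was -0.08. All 3 called genes are E2F factors. E2f8, a repressor of the E2F family that itself peaks in cycling cells, read 5.04, 5.15 and 4.99 at day 4 and 3.46, 3.11 and 3.27 at week 2, a change of -1.78 (SE 0.19, adjusted p = 7.61e-05). E2f2 changed by -1.04 (SE 0.23, adjusted p = 0.0288) and E2f3 by -0.90 (SE 0.21, adjusted p = 0.0378), and both calls were lost without any single lung array except week 2 replicate 1. With the macrophage-low arrays alone, 0 of the 3 were called (E2f8 -1.70, adjusted p = 0.0575), and with the covariate 2 were. The cyclin D genes Ccnd2 and Ccnd3 changed by 0.21 and -0.35 (adjusted p = 0.793 and 0.506). The linker histone gene H1f5, which was outside these lists, fell by more than any of their members. It read 9.14, 8.41 and 8.90 at day 4 and 4.07, 4.85 and 4.69 at week 2, a change of -4.28 (SE 0.55, adjusted p = 0.000387), and of -4.44 (adjusted p = 0.0742) without the 3 macrophage-high arrays.

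Interferon-stimulated genes, the antiviral effectors switched on by type I and type II interferon through STAT and IRF factors, formed the other large group. Of 36 measured members 24 were called lower and 0 higher (66.7%, beside 1.81% of all genes), with a median change of -1.38. The change was below 0 for 35 of the 36, the exception being Ifit3 (0.16, adjusted p = 0.924). When the macrophage-high arrays were left out, the median was -1.36 and 7 were called, and with the macrophage covariate 18 were.

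Ifit1, whose protein binds RNA with foreign cap structures, read 7.51, 7.57 and 7.82 at day 4 and 4.88, 4.26 and 4.05 at week 2, a change of -3.24 (SE 0.35, adjusted p = 7.61e-05). Its naive arrays read 5.29 and 5.17, so 3 of 3 week 2 values lay below both naive values. Rtp4, an interferon-induced chaperone of receptors, read 7.62, 7.84 and 7.95 at day 4 and 4.76, 5.36 and 4.66 at week 2, a change of -2.88 (SE 0.33, adjusted p = 0.000128). Isg15, a ubiquitin-like modifier, read 6.03, 6.03 and 6.99 and then 3.78, 4.09 and 4.08, a change of -2.37 (SE 0.31, adjusted p = 0.000456). Day 4 replicate 3, the day 4 array with the fewest macrophage transcripts, was the highest for Ifit1, Rtp4 and Isg15. The mean of the whole list was instead highest on day 4 replicate 2, at 6.58, 6.72 and 6.63 on day 4 replicates 1, 2 and 3. The part of macrophage RNA was not tested. Bst2, the tetherin that holds budding viruses, read 9.05, 9.14 and 8.37 at day 4 and 6.37, 6.87 and 6.56 at week 2, a change of -2.26 (SE 0.28, adjusted p = 0.00026). None of these 4 genes overlapped between groups, and their calls held whichever single lung array was left out. Without the 3 macrophage-high arrays Ifit1, Rtp4 and Isg15 stayed called and Bst2 did not (-1.75, adjusted p = 0.16). The factor Irf7 (-1.32), the nucleic acid sensor Zbp1 (-2.19), the ISG15 protease Usp18 (-1.89) and the antiviral GTPase Mx1 (-1.45) were called as well.

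The interferon-stimulated response element (ISRE), bound by ISGF3 and IRF factors, was searched as GAAA, any 2 bases, GAAA on both strands of the same promoter windows. It was present for 14 of the 27 interferon-stimulated genes with a listed promoter (51.9%), or 45.5% of their promoters, against 3.3% of all 20611 promoters. The CHR was present in 15.2% of their promoters, near the 17% of all promoters. The promoters of the 3 called members with the largest falls that hold the motif are printed with the ISRE in capitals, as TTTC, any 2 bases, TTTC where it lies on the opposite strand; overlapping matches form one capital stretch. They are Ifit1 at chr19:34640639-34640938 on the plus strand, with matches starting at -104 and -85, Isg15 at chr4:156200769-156201068 on the minus strand, with matches at -78, -72 and -66, and Bst2 at chr8:71537423-71537722 on the minus strand, with matches at -130 and -124.
Ifit1: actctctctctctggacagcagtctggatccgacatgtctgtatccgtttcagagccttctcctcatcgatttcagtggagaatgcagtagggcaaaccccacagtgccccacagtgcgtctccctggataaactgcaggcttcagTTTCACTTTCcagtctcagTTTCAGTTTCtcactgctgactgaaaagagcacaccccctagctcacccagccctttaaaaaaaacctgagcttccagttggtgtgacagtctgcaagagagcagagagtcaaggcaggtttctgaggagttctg
Isg15: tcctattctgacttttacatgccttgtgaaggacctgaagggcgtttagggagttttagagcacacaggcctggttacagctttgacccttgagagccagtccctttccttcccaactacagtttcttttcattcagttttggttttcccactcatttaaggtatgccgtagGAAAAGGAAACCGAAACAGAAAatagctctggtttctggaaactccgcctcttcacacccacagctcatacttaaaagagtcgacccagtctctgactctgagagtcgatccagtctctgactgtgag
Bst2: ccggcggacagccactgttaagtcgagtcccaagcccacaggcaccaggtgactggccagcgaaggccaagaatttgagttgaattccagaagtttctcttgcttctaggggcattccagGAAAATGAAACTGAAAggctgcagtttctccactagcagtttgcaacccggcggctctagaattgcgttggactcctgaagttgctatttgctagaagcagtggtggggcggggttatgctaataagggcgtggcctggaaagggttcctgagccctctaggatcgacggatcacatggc
Over all genes called lower, 10% of promoters held an ISRE and 26.9% a CHR, and over all genes called higher 1.32% and 19.7% did.

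**Figure D3:**
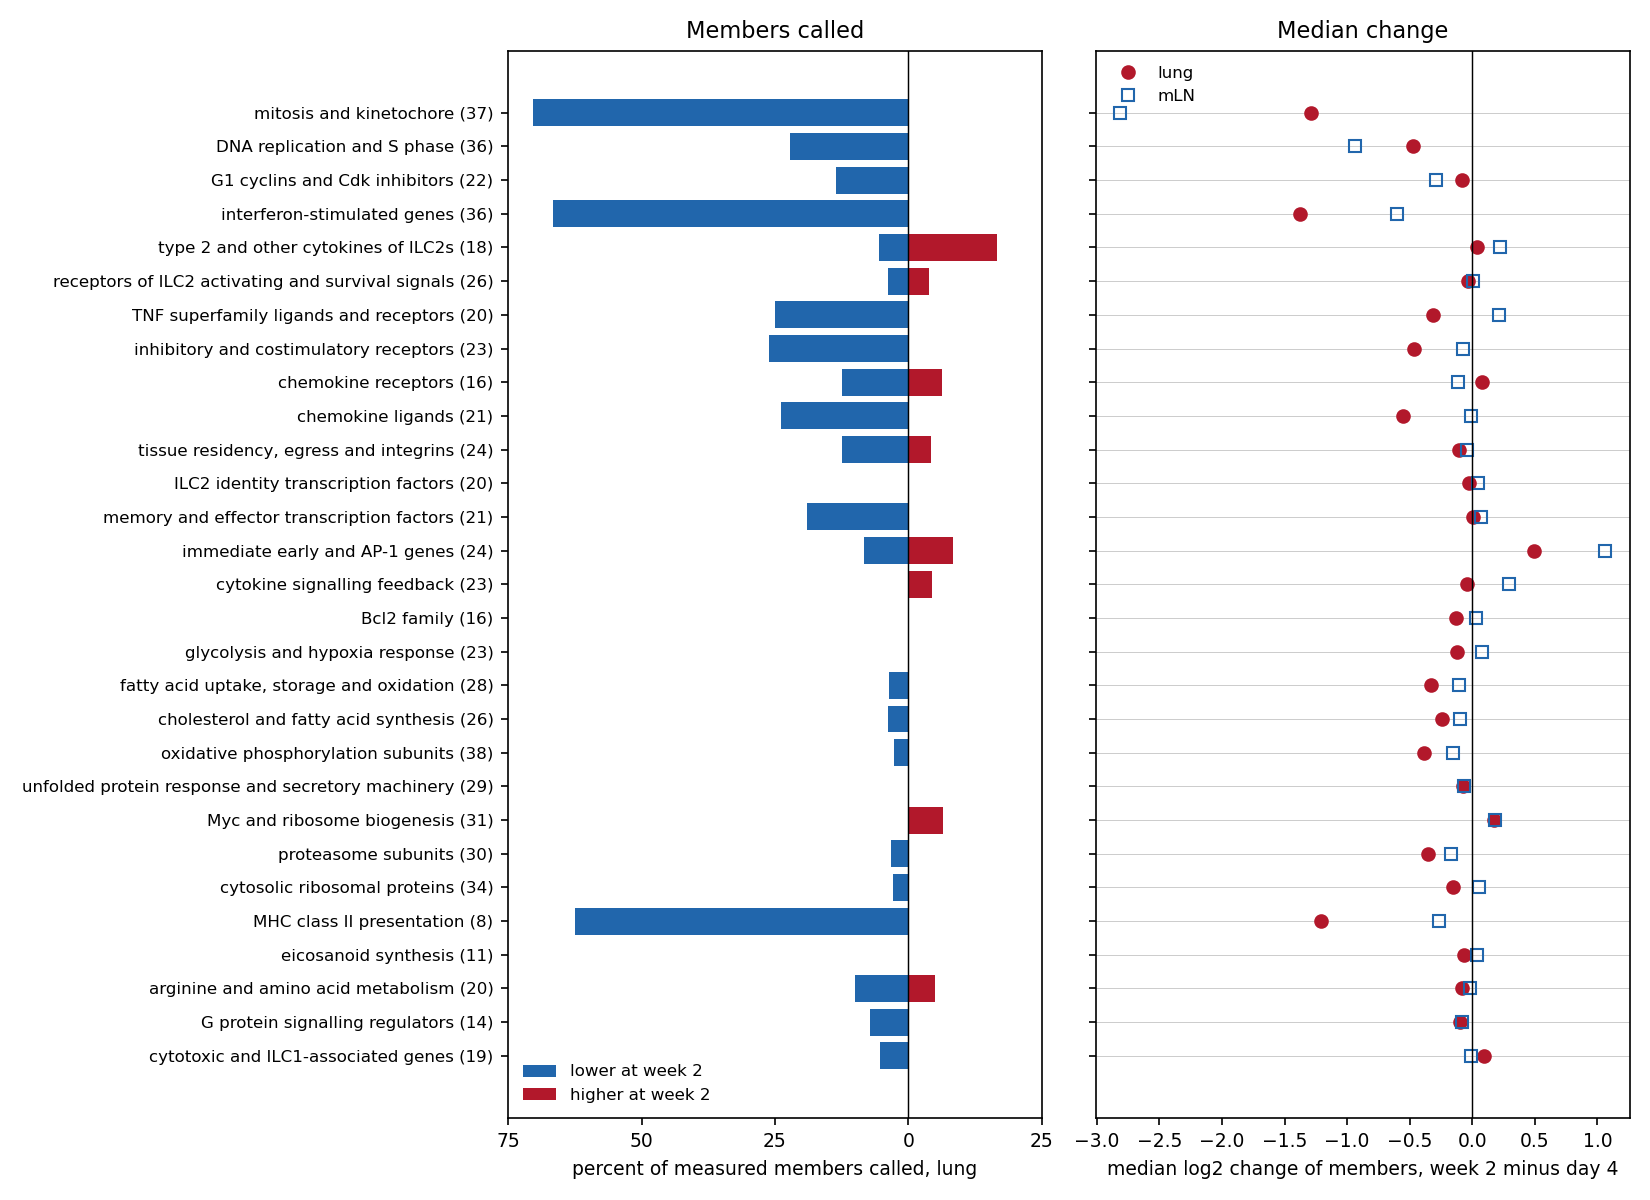
Left, percent of the measured members of each of 29 gene lists (number measured in parentheses) called lower (blue, to the left) or higher (red, to the right) at week 2 in lung ILC2s. Right, median log2 change of the same members in the lung (filled circles) and the mLN (open squares), where mitosis lies at -1.29 and -2.81 and interferon-stimulated genes at -1.38 and -0.60.

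Among 26 measured receptors of activating and survival signals, 1 was called lower and 1 higher (7.69%, beside 1.81% of all genes). The median change was -0.04. Il1r2, the decoy receptor that captures IL-1 without signalling, read 9.22, 8.85 and 9.29 at day 4 and 5.72, 5.31 and 5.74 at week 2, a change of -3.53 (SE 0.32, adjusted p = 1.46e-05). Every week 2 value lay above the naive values of 3.36 and 3.16. Nmur1 rose. This receptor of neuromedin U, through which neurons stimulate ILC2s, read 6.88, 6.97 and 6.82 at day 4 and 8.25, 8.12 and 8.08 at week 2, a change of 1.26 (SE 0.21, adjusted p = 0.00306). The naive arrays read 8.04 and 8.45 and the 4 month arrays 7.96 and 8.62, so that day 4 was the low time among the lung groups. With the macrophage-low arrays alone, Il1r2 was called (-3.78, adjusted p = 0.00911) and Nmur1 was not (1.37, adjusted p = 0.212), while both were called with the covariate. The IL-25 receptor Il17rb read 9.57, 9.84 and 9.58 at day 4 and 9.60, 9.61 and 9.64 at week 2, the groups overlapped, and its change was -0.05 (adjusted p = 0.961). The IL-7 receptor Il7r changed by 0.30 (adjusted p = 0.467), the IL-2 receptor chain Il2ra by 0.49 (adjusted p = 0.267), the costimulator Icos by 0.06 (adjusted p = 0.96) and Kit by 0.30 (adjusted p = 0.625).

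Of 23 measured inhibitory and costimulatory receptors and related molecules, 6 were called lower and 0 higher (26.1%, beside 1.81% of all genes). The median change was -0.46. Tigit, a receptor of poliovirus receptor family ligands that restrains T and NK cells, read 7.01, 6.70 and 7.66 at day 4 and 4.48, 3.83 and 3.95 at week 2, a change of -3.04 (SE 0.24, adjusted p = 5.26e-06). Ctla4, which competes with CD28 for B7 ligands, read 6.69, 7.02 and 8.05 and then 4.85, 4.58 and 4.40, a change of -2.64 (SE 0.35, adjusted p = 0.0005). Lag3, a ligand of MHC class II, read 6.18, 5.54 and 6.36 and then 4.04, 3.78 and 4.12, a change of -2.05 (SE 0.23, adjusted p = 0.000106). All 3 were highest on day 4 replicate 3, no group overlapped, and the calls held without each single array and without the 3 macrophage-high arrays (changes of -3.51, -3.33 and -2.45). The week 2 values overlapped the naive values of 3.56 and 3.90 for Tigit and of 4.84 and 4.73 for Ctla4. The remaining calls were Havcr2 (-1.03), the galectin Lgals3 (-1.05) and the ectonucleotidase Nt5e (-0.93). Those of Havcr2 and Lgals3 were lost without any single lung array except day 4 replicate 3, and that of Nt5e without any single one. All 3 were also lost without the 3 macrophage-high arrays and with the covariate. Pdcd1, which encodes PD-1, read 7.36, 7.34 and 7.98 at day 4 and 6.86, 6.77 and 6.58 at week 2 without overlap, but its change of -0.82 did not pass (adjusted p = 0.213). Klrg1, an inhibitory receptor of mature ILC2s, changed by -0.69 (adjusted p = 0.137).

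Of 20 measured ligands and receptors of the TNF superfamily, 5 were called lower and 0 higher (25%, beside 1.81% of all genes). The median change was -0.32. Tnfsf4, the OX40 ligand by which ILC2s costimulate T cells, read 7.49, 6.96 and 7.74 at day 4 and 5.67, 5.93 and 5.99 at week 2, a change of -1.53 (SE 0.35, adjusted p = 0.0342). Its receptor Tnfrsf4 changed by -1.18 (SE 0.25, adjusted p = 0.0218), Cd70 by -1.35 (SE 0.30, adjusted p = 0.0264) and the death ligand Tnfsf10 by -0.80 (SE 0.18, adjusted p = 0.0295). The calls of Tnfsf4, Tnfrsf4 and Cd70 were lost without any single lung array except day 4 replicate 2, and that of Tnfsf10 without any except day 4 replicate 3. The list held 4 calls without day 4 replicate 2, 2 without day 4 replicate 3 and 1 without each of the other four. Tnfrsf8, which encodes CD30, read 5.16, 4.96 and 5.48 and then 3.75, 4.002 and 4.43, a change of -1.14 (SE 0.19, adjusted p = 0.00362) that held without each single array. When the macrophage-high arrays were left out, Tnfrsf8 (-1.60) and Tnfrsf4 (-1.80) were called (adjusted p = 0.0239 and 0.019) and the other three were not, with Tnfsf10 at -0.46. With the covariate 3 of the 5 were called.

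Genes outside the lists included several of the largest falls. Tff1, a secreted trefoil peptide of mucosal surfaces, read 9.20, 8.88 and 8.79 at day 4 and 4.90, 4.76 and 4.52 at week 2, a change of -4.22 (SE 0.25, adjusted p = 1.75e-07). Its naive arrays read 4.06 and 4.73 and its 4 month arrays 4.80 and 3.80, so that day 4 alone was high among the lung groups. Bex1, a small adaptor protein known from neurons, read 8.86, 7.93 and 8.28 and then 4.004, 4.45 and 4.43, a change of -4.06 (SE 0.36, adjusted p = 1.46e-05). It was near the naive values of 3.82 and 4.40 again at week 2. Asic3, an acid-sensing ion channel, read 8.51, 8.22 and 8.09 and then 5.47, 5.44 and 5.54, a change of -2.79 (SE 0.21, adjusted p = 4.35e-06). Unlike Tff1 and Bex1, it stayed above both naive values, 4.45 and 3.73, on all 3 week 2 arrays. These 3 genes were called without each single array and without the 3 macrophage-high arrays, at -3.95, -4.05 and -2.64.

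Rnase2a, a ribonuclease of the eosinophil-associated family, had the most negative change of all genes, -5.32 (SE 0.83, adjusted p = 0.00175). It read 10.41, 10.01 and 5.68 at day 4 and 2.77, 2.77 and 4.60 at week 2. The high day 4 arrays were those high in macrophage markers, as was the highest week 2 array, and without these 3 arrays the change was -2.91 (limma, adjusted p = 0.0058). On the naive arrays it read 2.79 and 3.79.

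**Figure D4:**
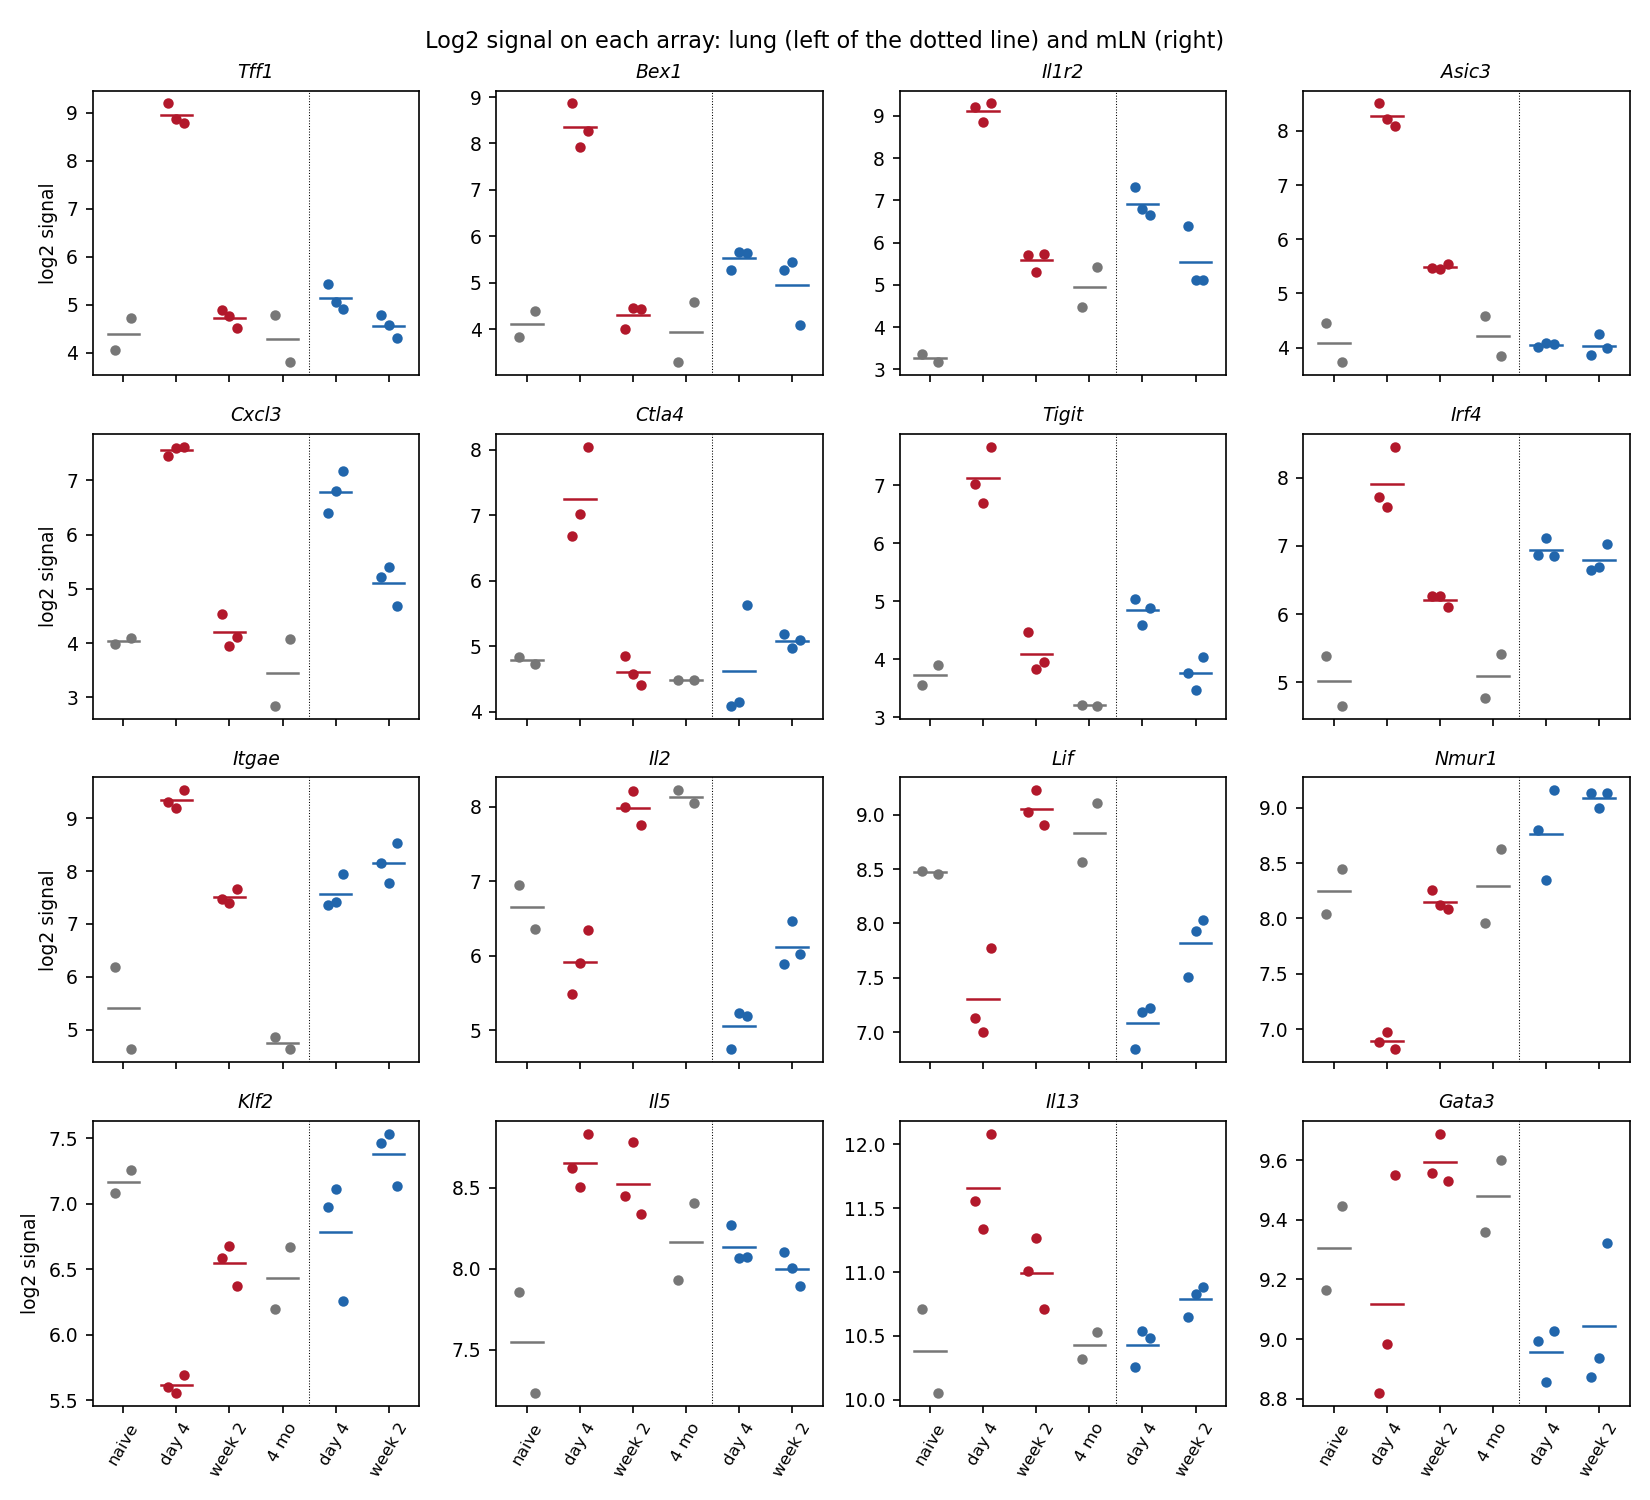
Log2 signal (y axis) of 16 genes on each array of the 6 groups (x axis), with a bar at the group mean, lung at day 4 and week 2 in red, naive and 4 month lung in grey and mLN in blue. Tff1, Bex1 and Tigit are high in the day 4 lung group, Il2, Lif and Nmur1 are low there, and Il5 and Gata3 overlap between day 4 and week 2.

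Among 18 measured cytokines, 3 rose and 1 fell (22.2% called, beside 1.81% of all genes), with a median change of 0.04. Il2, the T cell growth factor to which ILC2s also respond, read 5.49, 5.91 and 6.35 at day 4 and 7.99, 8.21 and 7.76 at week 2, a change of 2.07 (SE 0.24, adjusted p = 0.000134). The week 2 values were above both naive values, 6.95 and 6.36, and beside the 4 month values, 8.22 and 8.05. Lif, a cytokine of the IL-6 family, read 7.13, 7.002 and 7.78 and then 9.03, 9.23 and 8.91, a change of 1.75 (SE 0.22, adjusted p = 0.000331). Tnf read 9.33, 8.62 and 9.59 and then 10.86, 10.94 and 10.60, a change of 1.62 (SE 0.32, adjusted p = 0.0122), and lost its call without day 4 replicate 2, week 2 replicate 1 or week 2 replicate 2. The naive arrays read 8.48 and 8.46 for Lif, so that for Il2 and Lif alike the naive values lay between those of day 4 and week 2. Penk, the precursor of the opioid peptide Met-enkephalin, fell. It read 5.92, 5.34 and 6.30 at day 4 and 4.28, 3.52 and 4.29 at week 2, a change of -1.82 (SE 0.28, adjusted p = 0.00171). Without the 3 macrophage-high arrays the calls of Il2 (1.75, adjusted p = 0.0575), Lif (1.35, adjusted p = 0.131) and Tnf (1.30, adjusted p = 0.649) were all lost, that of Penk held, and the list median was -0.15. With the covariate Il2 and Lif were called higher and Tnf was not.

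The type 2 cytokines that define these cells did not pass the test. Il13 read 11.55, 11.34 and 12.08 at day 4 and 11.01, 11.26 and 10.71 at week 2, with the day 4 arrays all higher and a change of -0.67 (SE 0.22, adjusted p = 0.177). Il5 read 8.62, 8.50 and 8.83 and then 8.45, 8.78 and 8.34, the groups overlapped, and the change was -0.13 (SE 0.19, adjusted p = 0.891). Il4 changed by -0.68 (adjusted p = 0.0631), Il6 by -0.74 (adjusted p = 0.352), Il9 by -0.92 (adjusted p = 0.186) and Csf2 by 0.61 (adjusted p = 0.158). Il6 remained far above its naive values of 3.39 and 3.22 at both times, at 7.25, 7.25 and 7.98 and 6.53, 6.64 and 7.10.

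Of 21 measured chemokines, 5 were called lower and 0 higher (23.8%, beside 1.81% of all genes), with a median change of -0.55. Cxcl3, a neutrophil attractant, read 7.45, 7.59 and 7.62 at day 4 and 4.54, 3.94 and 4.11 at week 2, a change of -3.35 (SE 0.28, adjusted p = 8.48e-06). Ccl5, made by many effector lymphocytes, read 10.22, 9.98 and 9.81 and then 8.28, 8.40 and 8.31, a change of -1.68 (SE 0.20, adjusted p = 0.000178). Ccl5 at week 2 lay below both naive values, 9.85 and 10.10, on all 3 arrays. The naive arrays were also higher in T cell markers, at 6.61 and 6.42, against 5.04 to 5.23 on the 6 lung arrays compared. Ccl24, an eotaxin also made by macrophages, read 9.22, 8.59 and 6.58 and then 3.84, 3.60 and 4.34, a change of -4.20 (SE 0.46, adjusted p = 7.61e-05), and -2.86 without the 3 macrophage-high arrays. Ccl17 read 10.55, 10.24 and 4.41 and then 3.43, 3.64 and 4.85, a change of -4.43 (SE 1.03, adjusted p = 0.0357). Its groups overlapped, its high arrays were the macrophage-high day 4 arrays, and without the 3 macrophage-high arrays the change was -0.87. Xcl1 changed by -1.47 (SE 0.36, adjusted p = 0.0487). The calls of Ccl17 and Xcl1 were each lost without any single lung array but one, day 4 replicate 3 for Ccl17 and day 4 replicate 2 for Xcl1. The list held 3 calls without day 4 replicate 1 or week 2 replicates 1 or 2, and 7 without day 4 replicate 3. With the macrophage-low arrays alone, Cxcl3 and Ccl24 were called, and Ccl5 (-1.47, adjusted p = 0.104), Ccl17 and Xcl1 (-2.25, adjusted p = 0.115) were not. With the covariate 3 of the 5 were called.

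Receptors that guide migration moved in both directions. Among 16 measured chemokine receptors, Ccr2 was called higher and Ccr4 and Ccr1 lower (18.75%, beside 1.81% of all genes). The median change was 0.08. Ccr2, the receptor of CCL2, read 9.36, 9.14 and 9.06 at day 4 and 10.04, 10.25 and 10.15 at week 2, a change of 0.96 (SE 0.15, adjusted p = 0.002). The week 2 values were beside the naive values of 10.20 and 10.07. Ccr4, the receptor of CCL17 and CCL22, read 7.32, 7.33 and 7.49 and then 6.38, 6.41 and 6.03, a change of -1.10 (SE 0.16, adjusted p = 0.000825), and stayed above the naive values of 5.11 and 5.20. Ccr1 changed by -1.04 (SE 0.25, adjusted p = 0.0433), which did not hold without any single lung array except day 4 replicate 3. When the macrophage-high arrays were left out, 0 of the 3 were called, with Ccr2 at 1.09 (adjusted p = 0.135) and Ccr4 at -1.09 (adjusted p = 0.116), and the list median was -0.11. With the covariate Ccr2 and Ccr4 were called and Ccr1 was not.

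Of 24 measured genes of tissue residency, egress and integrins, 1 was called higher and 3 lower (16.7%, beside 1.81% of all genes). The median change was -0.11. Itgae, the CD103 integrin chain that binds epithelial E-cadherin, read 9.30, 9.18 and 9.53 at day 4 and 7.48, 7.39 and 7.66 at week 2, a change of -1.83 (SE 0.30, adjusted p = 0.00264). It stayed above both naive values, 6.19 and 4.63, at week 2. Itgb1, the beta chain of many matrix integrins, changed by -0.78 (SE 0.16, adjusted p = 0.0136). S1pr1, which lets lymphocytes leave tissue along a sphingosine phosphate gradient, read 6.41, 6.59 and 6.64 and then 5.77, 5.61 and 5.79, a change of -0.82 (SE 0.20, adjusted p = 0.0408). Klf2, a factor known to drive S1pr1 in T cells, read 5.60, 5.56 and 5.69 and then 6.58, 6.68 and 6.37, a change of 0.93 (SE 0.21, adjusted p = 0.0323). Klf2 and S1pr1 thus moved in opposite directions, and both calls were lost without any single lung array. The call of Itgb1 was lost without day 4 replicates 1 or 2 or week 2 replicates 1 or 3. No member was called without the 3 macrophage-high arrays or with the covariate (limma), where Itgae had an adjusted p of 0.14 (change -2.09) and 0.0518.

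With limma, 0 of 20 measured transcription factors of ILC and ILC2 identity were called, beside 1.81% of all genes. A list of this size with 0 calls is near that share and says little about these factors. The median change was -0.03, and -0.11 without the 3 macrophage-high arrays. At most 1 was called with a single array left out. Gata3, the master factor of type 2 lymphocytes, read 8.82, 8.98 and 9.55 at day 4 and 9.56, 9.69 and 9.53 at week 2, with overlap and a change of 0.48 (adjusted p = 0.32). Rora changed by -0.17 (adjusted p = 0.805) and Id2 by -0.01 (adjusted p = 0.995). Of 21 measured factors linked to lymphocyte memory or effector fate, 4 were called lower and 0 higher (19.0%, beside 1.81% of all genes). The median change was 0.00. Myb, a factor of progenitors and cycling lymphocytes, read 6.13, 5.59 and 6.66 at day 4 and 3.74, 4.55 and 3.996 at week 2, a change of -2.03 (SE 0.32, adjusted p = 0.00173). The naive arrays read 6.32 and 6.67, close to day 4 and above every week 2 value. Irf4, induced by antigen receptor and cytokine signals, read 7.72, 7.57 and 8.45 and then 6.27, 6.26 and 6.11, a change of -1.70 (SE 0.25, adjusted p = 0.000959). Batf3, a partner of IRF4 on DNA, read 6.38, 6.06 and 5.34 and then 4.44, 4.66 and 4.71, a change of -1.32 (SE 0.21, adjusted p = 0.00208). Bcl6, a transcriptional repressor that acts in follicular helper and memory cells, read 7.99, 7.57 and 7.64 and then 6.85, 6.87 and 6.73. Its change was -0.92 (SE 0.17, limma adjusted p = 0.00695), and its call was lost without day 4 replicate 1. Myb and Irf4 were also called without the macrophage-high arrays and with the covariate, and Batf3 and Bcl6 were called in neither fit. Batf3, whose highest day 4 values were on the macrophage-high arrays, changed by -0.79 (adjusted p = 0.486) without those 3 arrays, and its covariate fit gave an adjusted p of 0.0556. The list median without them was -0.30.

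Immediate early and AP-1 genes, which respond within minutes to stimulation and to cell handling, split the day 4 group. The mean of the 24 measured members was 7.72, 7.71 and 8.74 on day 4 replicates 1, 2 and 3, and 8.52, 8.60 and 8.55 at week 2. Jun and Egr1 were called higher and Egr2 and Ier3 lower (16.7%, beside 1.81% of all genes), and the median change was 0.50. Jun read 8.49, 8.03 and 9.19 at day 4 and 9.76, 9.78 and 9.82 at week 2, a change of 1.21 (SE 0.27, adjusted p = 0.0269), and Egr1 read 6.95, 6.49 and 7.63 and then 8.38, 8.49 and 8.27, a change of 1.36 (SE 0.32, adjusted p = 0.0357). Day 4 replicate 3 was the highest day 4 array for both. Without that array 8 members were called higher, without any other single lung array 0 were, and without the 3 macrophage-high arrays the median was -0.06 and 0 were called in either direction, with Jun at 0.58 and Egr1 at 0.81. Egr2, a factor that restrains lymphocyte activation, went the other way and read 8.17, 7.49 and 8.01 at day 4 and 6.59, 6.66 and 6.59 at week 2, a change of -1.28 (SE 0.21, adjusted p = 0.00217) that held without each single array but not without those 3 (-1.39, adjusted p = 0.105). The call of Ier3 (-0.82) was lost without any single array.

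The heat shock gene Hspa1b, an Hsp70 chaperone outside the lists, had one of the largest rises. It read 6.27, 5.64 and 5.50 at day 4 and 7.70, 7.17 and 8.73 at week 2, a change of 2.07 (SE 0.33, adjusted p = 0.00202). The naive lung arrays read 7.84 and 7.57. The mLN arrays read 10.19, 10.89 and 11.25 at day 4 and 11.56, 11.49 and 11.71 at week 2, higher than any lung array. Its lung change was 1.94 (adjusted p = 0.0575) without the macrophage-high arrays. Of 23 genes of cytokine signalling feedback, Socs1, an inhibitor of JAK kinases, was the only call (4.35%, beside 1.81% of all genes). It read 6.26, 6.01 and 6.29 at day 4 and 7.03, 7.0 and 7.39 at week 2, a change of 0.95 (SE 0.22, adjusted p = 0.0298), and lost its call without any single lung array except day 4 replicate 3, and without the 3 macrophage-high arrays (0.72).

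By number, metabolic and biosynthetic lists held few calls. Shares called were 6.45% for Myc and ribosome biogenesis, 15% for arginine and amino acid metabolism and 3.57% for fatty acid genes, beside 1.81% of all genes. Of 31 genes of Myc and ribosome biogenesis, Myc (0.78, adjusted p = 0.0341) and the nucleolar protein gene Nop56 (0.68, adjusted p = 0.0343) were higher, with a median change of 0.17. Myc read 7.11, 7.19 and 7.09 at day 4 and 7.83, 8.08 and 7.81 at week 2 and lost its call without any single lung array, and Nop56 lost it without any except day 4 replicate 3. Both were lost without the 3 macrophage-high arrays, at 0.87 and 0.33. Of 20 genes of arginine and amino acid metabolism, Slc7a8, a transporter of large neutral amino acids, rose from 7.28, 7.79 and 7.49 at day 4 to 8.95, 8.84 and 8.81 at week 2, a change of 1.35 (SE 0.22, adjusted p = 0.00256). Tph1, the enzyme of peripheral serotonin synthesis, fell from 6.40, 6.88 and 6.12 to 5.60, 5.24 and 5.09, a change of -1.15 (SE 0.22, adjusted p = 0.00969) that was lost without day 4 replicate 2 or week 2 replicates 2 or 3. With the macrophage-low arrays alone, neither was called, at 1.41 (adjusted p = 0.193) and -0.70 (adjusted p = 0.873) in that order. Arg1, an arginase that activated and resting ILC2s both hold, read 10.01, 9.84 and 10.41 and then 9.85, 9.79 and 9.68, a change of -0.31 (adjusted p = 0.557). The transporter Slc7a2 (-1.57) and the lipid carrier Fabp4 (-3.03) were called lower with overlapping groups. Fabp4 read 7.43, 6.48 and 4.56 at day 4 and 2.59, 2.14 and 4.64 at week 2, in the order of the macrophage markers inside each group except between day 4 replicates 1 and 2. Both lost their calls without day 4 replicates 1 or 2 or week 2 replicates 1 or 2, while without all 3 macrophage-high arrays Fabp4 changed by -2.19 (limma, adjusted p = 0.0275) and Slc7a2 by -0.72 (adjusted p = 0.742). With the covariate neither was called.

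One gene was called lower in each of these lists: Fdps (-1.16) among 26 genes of cholesterol and fatty acid synthesis, Atp5d (-0.88) among 38 subunits of oxidative phosphorylation, Psmb5 (-0.77) among 30 proteasome subunits, Rplp0 (-1.09) among 34 ribosomal proteins, and Rgs10 (-0.88) among 14 regulators of G protein signalling. Each of these calls was lost without at least 5 of the 6 lung arrays, taken singly, and all 5 without the 3 macrophage-high arrays, where the changes were -0.60, -0.57, -0.45, -1.11 and -0.41 in the same order. With single lung arrays left out, none of these 5 lists held more than 2 calls in either direction. The single calls were 2.63% to 7.14% of a list, beside 1.39% of all genes called lower, and say little about the lists. Oxidative phosphorylation genes had a median change of -0.38, with 35 of 38 below 0, beside 10696 of all 22180 genes. Their median was -0.14 without the 3 macrophage-high arrays. No gene was called among 23 of glycolysis and hypoxia response, 29 of the unfolded protein response, 16 of the Bcl2 family or 11 of eicosanoid synthesis (limma). With 1.81% of all genes called, 0 calls in lists of these sizes say little about them. Bcl2 itself read 8.63, 8.70 and 8.66 at day 4 and 9.09, 9.08 and 9.10 at week 2, apart but not called (0.43, adjusted p = 0.467). Among 19 cytotoxic and ILC1-associated genes, Ccl5 was the only call, and it was lost without the 3 macrophage-high arrays.

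MHC class II genes are carried at low level by ILC2s and at high level by macrophages, dendritic cells and B cells. In the lung, 5 of 8 measured members were called lower and 0 higher (62.5%, beside 1.81% of all genes). The median change was -1.21. The macrophage marker mean was 4.38 to 5.98 at day 4 and 3.99 to 5.21 at week 2. Replicate 3 was the lowest day 4 array and the highest week 2 array for both the macrophage and the MHC class II mean. Between the groups the order differed. The MHC class II mean was 6.55 on day 4 replicate 3 and 6.30 on week 2 replicate 3, beside macrophage means of 4.38 and 5.21. On the day 4 mLN arrays it was 6.99, 7.11 and 6.61, beside macrophage means of 3.75, 3.55 and 3.90. H2-Aa read 8.20, 7.63 and 7.01 at day 4 and 5.03, 5.18 and 6.68 at week 2, a change of -1.98 (SE 0.39, adjusted p = 0.0132). H2-Ab1 read 8.95, 8.47 and 7.54 and then 5.76, 6.01 and 7.59, a change of -1.87 (SE 0.39, adjusted p = 0.0199), and its groups overlapped. H2-Eb1 changed by -1.72 (SE 0.37, adjusted p = 0.0218) and the peptide-loading chaperone chain H2-DMa by -1.27 (SE 0.24, adjusted p = 0.00983), and the protease Ctss by -1.15 (SE 0.27, adjusted p = 0.04). Week 2 replicate 3, high in macrophage markers, was the highest week 2 array for all 5. When the macrophage-high arrays were left out, the median was -0.94 and 0 of the 8 were called, with H2-Eb1 at -0.98, and with the covariate 0 were. Of single arrays, 0 were called without day 4 replicate 1, week 2 replicate 1 or week 2 replicate 2, and 1 without day 4 replicate 2. The part of macrophage RNA in these changes was not tested.

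The largest rises beyond the cytokines and Hspa1b were spread over genes of unlike function. Pard3, a scaffold of cell polarity, read 5.07, 5.21 and 5.33 at day 4 and 6.94, 6.50 and 6.72 at week 2, a change of 1.51 (SE 0.22, adjusted p = 0.000936). Flrt2, an adhesion molecule of the unc5 and latrophilin systems, read 3.27, 3.43 and 2.96 and then 4.62, 4.92 and 4.73, a change of 1.54 (SE 0.31, adjusted p = 0.0132). Its naive arrays read 7.28 and 6.08 and its 4 month arrays 6.60 and 7.67, above week 2, and its call was lost without day 4 replicate 1 or week 2 replicate 2. Fbxl21, an F-box protein of the clock machinery, read 4.76, 4.72 and 5.24 and then 6.82, 6.84 and 6.73, a change of 1.89 (SE 0.32, adjusted p = 0.00374). Qser1 changed by 1.52 (SE 0.28, adjusted p = 0.0075), the taste receptor gene Tas2r135 by 1.80 (SE 0.29, adjusted p = 0.00219) and the microRNA gene Mir202 by 1.70 (SE 0.24, adjusted p = 0.0008). The array measures a probe set named for Mir202, not the mature microRNA. Fam71a (1.91) and the small nucleolar RNA Snord43 (1.82) had their highest day 4 value on replicate 3, and both calls were lost without any single lung array except day 4 replicate 3. Without the 3 macrophage-high arrays Fam71a changed by 0.54 and Snord43 by 0.64, and 0 of the 8 genes in this paragraph were called, while with the covariate the other six were.

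Ighm, the immunoglobulin mu heavy chain gene, whose unrearranged locus is transcribed in innate lymphocytes too, read 7.59, 7.55 and 6.90 at day 4 and 8.62, 8.74 and 8.66 at week 2, a change of 1.33 (SE 0.19, adjusted p = 0.000822). The naive arrays read 9.07 and 9.20. The mean of all 9 measured B cell markers was 4.08 to 4.44 at day 4 and 4.44 to 4.53 at week 2. The gene has 7 probe sets, and with their mean in place of the brightest the call was lost.

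The same time contrast in the mLN, which shares no array with the lung contrast, gave 379 calls (1.71%), 262 lower (1.18%) and 117 higher (0.528%). Of the 401 lung calls, 132 were called in the mLN in the same direction, 109 lower and 23 higher, which is 32.9% of the lung calls and 34.8% of the mLN calls. The sign was the same in the mLN for 343 of the 401 lung calls (85.5%) and for 57% of all genes. The change of a gene in the lung minus its change in the mLN was called for 40 genes (0.18%), 25 positive and 15 negative. Of the 40, 31 were called in the lung, and 14 of them were called in the lung but not in the mLN. These 40 became 11 without week 2 lung replicate 2, 12 without day 4 mLN replicate 2, 19 without week 2 lung replicates 1 or 3, 20 without day 4 lung replicate 2, and 22 to 25 without single week 2 mLN arrays. The mLN calls became 247 without day 4 mLN replicate 2.

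Mitotic genes fell farther in the node. All 37 measured members were called lower in the mLN, with a median change of -2.81 beside -1.29 in the lung, and for 11 of the 37 the difference between the tissues was called. Ccna2, the cyclin of S phase and early mitosis, read 6.55, 6.02 and 5.96 at day 4 and 4.18, 4.37 and 4.02 at week 2 in the lung, and 8.34, 9.02 and 8.35 and then 4.41, 4.18 and 3.72 in the mLN. Its lung change of -1.99 and mLN change of -4.47 differed by 2.48 (SE 0.34, adjusted p = 0.00423). The node began higher at day 4 and ended near the lung at week 2. Nuf2, the partner of Ndc80 in the kinetochore, changed by -1.66 in the lung and -3.93 in the mLN, a difference of 2.27 (SE 0.35, adjusted p = 0.013). Hmmr, a spindle assembly protein, gave a difference of 2.02 (SE 0.39, adjusted p = 0.0475), Kif11 of 1.70 (SE 0.32, adjusted p = 0.039), Kif14 of 2.18 (SE 0.29, adjusted p = 0.00371) and Kif23 of 2.21 (SE 0.37, adjusted p = 0.0188). Kif14 and Kif23 were called in the mLN (-2.81 and -2.78) and not in the lung (-0.62, adjusted p = 0.175; -0.57, adjusted p = 0.404). Ube2c (-4.04 in the mLN) and Mki67 (-3.36) fell in both tissues, and their differences were not called.

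Interferon-stimulated genes were called less broadly in the node, 6 of 36 with a median change of -0.60, but no member's difference between the tissues was called. Bst2 read 8.26, 7.85 and 7.22 at day 4 and 7.71, 7.84 and 7.04 at week 2 in the mLN, with overlap, and its difference was -2.01 (SE 0.39, adjusted p = 0.0529). For Ifit1 the mLN arrays read 7.24, 5.62 and 6.73 and then 5.51, 5.84 and 5.37, and the difference was -2.28 (SE 0.50, adjusted p = 0.0864).

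**Figure D5:**
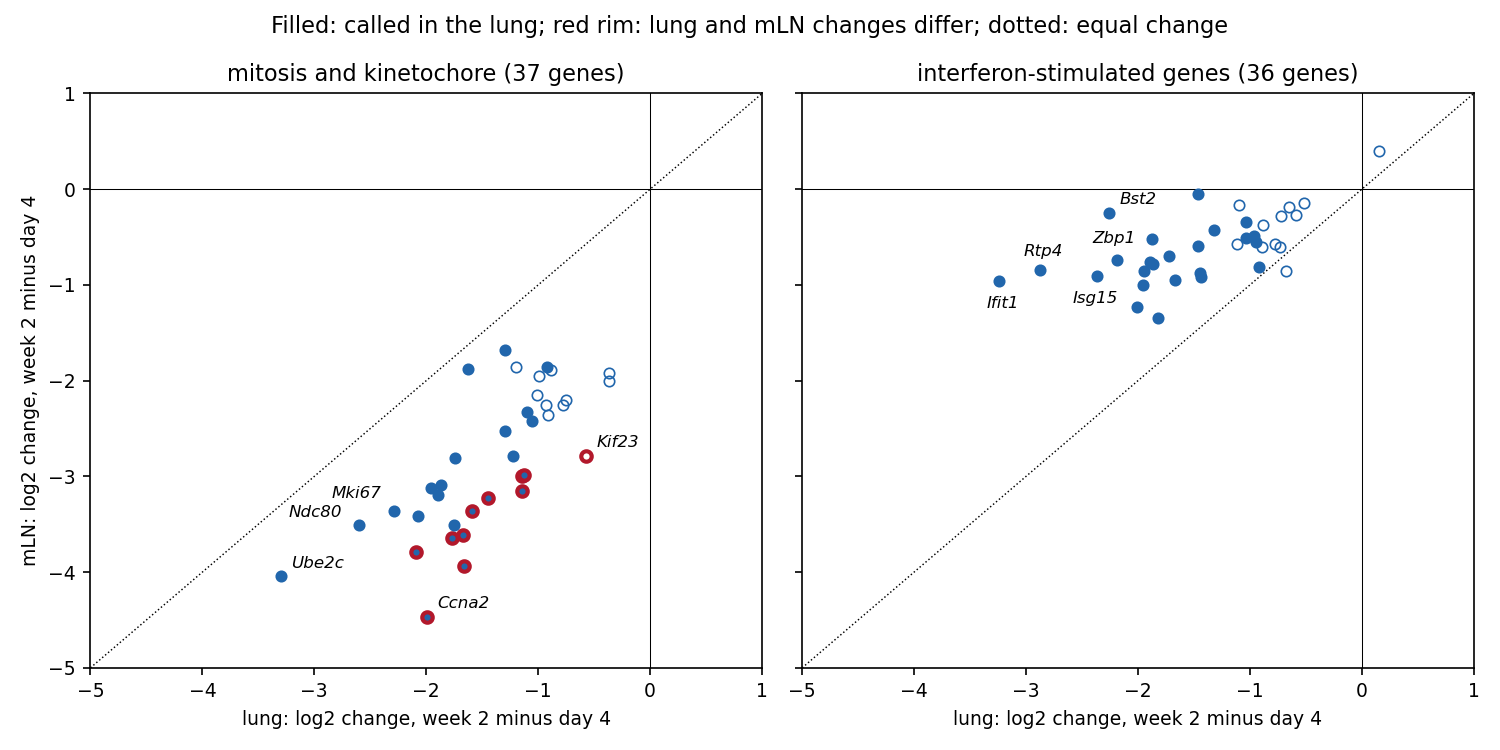
Log2 change from day 4 to week 2 in the lung (x axis) and the mLN (y axis) for 37 genes of mitosis and 36 interferon-stimulated genes, 1 point per gene. Filled points are called in the lung and red rims mark the 11 mitotic genes whose change differed between the tissues, all below the dotted line of equal change.

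Several of the largest lung falls were not called in the node. Tff1 read 5.43, 5.06 and 4.92 at day 4 and 4.80, 4.58 and 4.32 at week 2 in the mLN, a change of -0.57 (adjusted p = 0.483), and differed from the lung by -3.65 (SE 0.35, adjusted p = 0.000299). Bex1 read 5.28, 5.67 and 5.64 and then 5.28, 5.45 and 4.08 (change -0.59, adjusted p = 0.739) and differed by -3.47 (SE 0.51, adjusted p = 0.00856). Asic3 read 4.01, 4.08 and 4.07 and then 3.86, 4.25 and 4.0, near its naive lung level on all 6 mLN arrays, and differed by -2.77 (SE 0.30, adjusted p = 0.000754). Ccl24 differed by -3.77 (SE 0.64, adjusted p = 0.0217), beside macrophage marker means of 3.55 to 3.90 on all 6 mLN arrays, below every day 4 lung array.

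Inhibitory receptors and the factor Egr2 also separated the tissues. Ctla4 read 4.09, 4.16 and 5.63 at day 4 and 5.19, 4.97 and 5.10 at week 2 in the mLN, not called (0.46, adjusted p = 0.851), and differed by -3.10 (SE 0.50, adjusted p = 0.0149). Lag3 read 3.81, 4.39 and 4.31 and then 4.19, 4.06 and 4.27 and differed by -2.05 (SE 0.32, adjusted p = 0.0142). Tigit was called lower in both tissues (-1.08 in the mLN, adjusted p = 0.0257) and differed by -1.96 (SE 0.34, adjusted p = 0.025). Egr2 fell in the lung and rose in the mLN, from 4.78, 5.29 and 5.34 to 6.28, 6.32 and 5.98 (1.06, adjusted p = 0.0086), a difference of -2.34 (SE 0.29, adjusted p = 0.00251). Itgae read 7.36, 7.42 and 7.94 and then 8.15, 7.77 and 8.53 in the mLN and differed by -2.40 (SE 0.43, adjusted p = 0.0265). Ccr2 read 10.04, 10.005 and 10.12 and then 9.64, 9.49 and 9.72 there, with every week 2 array lower but no call (adjusted p = 0.268), and differed by 1.40 (SE 0.22, adjusted p = 0.013).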

How the data were processed

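Each array contributes a deposited log2 signal for every probe set, computed by RMA in Expression Console from Affymetrix, per the submitters' processing notes. Version numbers and a genome build were not stated there, no scanner files were used, and no batch or date is labelled. The RNA was total RNA taken with Trizol and biotin-labelled with a Nugen Encore kit, per the labels' protocols. Of 41345 probe sets, 23521 had 1 gene symbol, 1814 several and 16010 none in the platform annotation; 23328 of the first matched the gene table by Entrez identifier and 0 symbols were updated. The probe set with the highest mean was kept for the 1082 genes with more than 1, which left 22180 genes.

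Group means of all 16 arrays were fitted with limma 3.58.1 in R 4.3.3 (two-sided, no trend, 10 residual and 6.52 prior degrees of freedom), with Benjamini-Hochberg adjustment over all 22180 genes. The step was run on simulated arrays with independent noise for each gene and array. That run checks the code and not the stability of these calls, since no array effect shared across genes was simulated. The number of arrays limits the precision. Lists and members were chosen with earlier results of these data known. The text names the 12 called genes without overlap that rose most and the 12 that fell most (predicted genes and antigen receptor segments left out), up to 4 called members of each of 29 gene lists and 14 marker lists by size of change, a fixed set of ILC2 genes whether called or not, and the 5 largest differences between tissues in each direction. Further genes named in the text, such as Pcna, Irf7, Cdk1, Plk1 and Chil3, were chosen as examples after their values were seen. Whether same-numbered day 4 and week 2 arrays deviate together was checked, with correlations of -0.0329, -0.0711 and -0.104, so the numbers were not taken as pairs.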

Additional observations from a re-analysis of the deposited data

Results flagged for a closer look

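In 16 of the 103 genes chosen by the naming rule the change from day 4 to week 2 differed between lung and mLN. The test was that of the difference itself (limma, adjusted p under 0.05), called for 40 of all 22180 genes (0.18%). The naming rule took the 5 largest called differences in each direction, so for those genes the outcome was fixed by selection. The difference, lung change minus mLN change on the log2 scale, was negative for Ccl24 (-3.77), Tff1 (-3.65), Bex1 (-3.47), Ctla4 (-3.10), Asic3 (-2.77), Itgae (-2.41), Egr2 (-2.34), Lag3 (-2.05) and Tigit (-1.96). It was positive for Ccna2 (2.48), Nuf2 (2.27), Kif23 (2.21), Kif14 (2.18), Hmmr (2.02), Kif11 (1.70) and Ccr2 (1.40). The 6 positive genes other than Ccr2 are mitotic and fell in both tissues by sign, while Egr2 fell in the lung and rose in the mLN with a call in each. Plk1 (1.85) and Mt2 (-2.49), which were named after their values were seen, also differed by this test.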

How the results depend on the processing

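No named gene was called in opposite directions by the main fit and an alternative. This does not cover the sign of uncalled genes with small changes, such as Il17rb. All 401 lung calls kept their sign in the 7 fits where this was counted. These were array weights, 12 arrays, the 6 lung arrays with and without a block, the block, the covariate, and without the 3 macrophage-high arrays. Leaving out or weighting arrays could not reverse the 397 genes without overlap. Only the covariate fit could have, since fewer groups or a block of replicate numbers leave the lung change as it was. Over the 401, sign was not counted for the other settings, nor for the mLN calls or the differences between tissues; the median of the immediate early list went from 0.50 to -0.06 without the 3 macrophage-high arrays. Counts of lung calls (401 in all, 93 higher, 308 lower) became 1409, 504 and 905 with array weights, 689, 203 and 486 in the 12 arrays of groups with 3 replicates, 166, 28 and 138 with the macrophage covariate, and 46, 4 and 42 without the 3 macrophage-high arrays; requiring a log2 change of at least 1 left 263 and 49 higher, and the 6 lung arrays alone gave 164 higher. Leaving out 1 lung array gave 182 to 460 calls, 30 to 113 higher and 147 to 347 lower. The mLN count (379) became 629 with array weights and 247 to 380 with 1 array left out. The 40 differences between tissues became 25 after repeated quantile normalization, 205 with array weights, 102 in 12 arrays, 18 with the covariate, 13 without the 3 arrays and 11 to 52 with 1 left out. Mitosis calls (26) became 17 with the covariate and 5 without the 3 arrays, and interferon calls (24) became 7 without the 3 arrays. Replicate numbers were not taken as pairs, though correlations within groups of 3 arrays cannot exclude a shared day or batch. A fit with the replicate number as a block gave 441 lung calls, 378 of them among the 401, and on the 6 lung arrays alone 329. Of 103 named genes, 99 kept their call status with array medians centred, 92 after repeated quantile normalization, 70 with the covariate and 45 without the 3 arrays. Of the 82 named called genes, 47 stayed called whichever lung array was left out. Mitosis calls were 19 to 24 and interferon calls 17 to 23 with 1 array left out. Groups of 3 arrays limit the precision, and detection above background was not assessed, since the values carry no detection call.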

Other observations

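Families noticed after their values were seen are given as description only. Over all genes, 0.419% were called higher and 1.39% lower in the lung, and 0.528% and 1.18% in the mLN. Of 73 small nucleolar RNA genes (Snord and Snora), which guide chemical modification of ribosomal RNA, 59 had a lung change above 0. So had 11484 of all 22180 genes. The median of the 73 was 0.47 in the lung, 0.54 in the mLN and 0.20 when the 3 macrophage-high lung arrays were left out. In the lung 6 were called higher and 0 lower, and in the mLN 9 higher and 0 lower. Of 9 spliceosomal and Cajal body RNA genes, 3 were called higher in the lung, with a median of 0.86 and of 0.18 without those arrays. Of 29 clustered histone genes, 4 were called lower and 1 higher in the lung, and 10 lower and 1 higher in the mLN.

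Nr1d1, the clock repressor REV-ERB alpha, read 6.60, 6.55 and 6.85 at day 4 and 7.98, 8.34 and 8.004 at week 2 in the lung, a change of 1.44 (SE 0.24, adjusted p = 0.00334). In the mLN it read 5.96, 5.90 and 6.67 and then 7.78, 7.19 and 8.04, a change of 1.495 (adjusted p = 0.00176), so that it rose in both tissues, without overlap of the groups in either. The naive lung arrays read 8.55 and 8.41. Its relative Nr1d2 changed by 0.51 in the lung (adjusted p = 0.492), and the clock repressor Ciart by 0.72 in the lung (adjusted p = 0.157) and 1.06 in the mLN (adjusted p = 0.0183). The hour of isolation is not given in the sources used here.

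Mt2, a metal-binding metallothionein, read 7.12, 7.16 and 6.15 at day 4 and 4.12, 4.62 and 5.34 at week 2 in the lung, a change of -2.12 (SE 0.30, adjusted p = 0.000767), and its mLN change of 0.37 differed from it by -2.49 (SE 0.42, adjusted p = 0.0197). The tetraspanin Cd63 read 8.47, 7.90 and 7.58 and then 5.43, 5.61 and 6.43 in the lung, a change of -2.16 (SE 0.31, adjusted p = 0.000825). Without the 3 macrophage-high arrays the lung changes of Mt2 and Cd63 were -1.78 and -2.06.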
